A study of Zea mays with 18 samples.

Results

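PIN proteins are carriers in the plasma membrane that move the hormone auxin out of plant cells. Because a PIN protein can sit on 1 side of a cell, a file of cells that carry it passes auxin in that direction, and the direction of flow is known to shape embryos, organs and veins. In maize kernels, auxin made in the endosperm is known for its part in endosperm growth. Described here are 4 maize PIN genes, PIN1a (GRMZM2G098643), PIN1b (GRMZM2G074267), PIN1c (GRMZM2G149184) and PIN10a (GRMZM2G126260). They were taken by gene identifier from a table of 38300 genes, and all 4 were present. The rule uses identifiers and no measured value, although the family was picked for description with earlier results of these data known. PIN10a belongs to a group of PIN genes described from grasses.

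RNA was measured in 6 groups of the maize inbred B73, with 3 libraries in each: the embryo at 4 days after pollination (DAP), the endosperm on each day from 1 to 4 DAP, and the central cell at 0 DAP. The central cell is the cell of the unfertilized embryo sac that becomes endosperm once it is fertilized. The labels name no treatment. Ears of 0 DAP were not pollinated and the others were self-pollinated, and the tissue label of the 0 DAP libraries is endosperm although the series calls them central cell. Tissue was cut out by laser, and each library pooled sections from several kernels of 1 ear. The labels say that the RNA of the embryo and of 0 to 2 DAP was quantified by the height of a ribosomal RNA band, and name this for no other group, so this step cannot be told apart from the change between 2 and 3 DAP or from the tissue at 4 DAP.

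The values are read counts scaled to a common library size, called normalised CPM here. Whole reads could be recovered from them. The libraries held 7688120 to 124078873 reads, and replicate 1 at 1 DAP and replicate 1 of the embryo (9572961 reads) were the shallowest. In those 2 libraries 3 reads are worth 0.335 and 0.266 CPM, and in the other 16 they are worth 0.0790 CPM or less, so that a gene at 0 can lie anywhere below that level. These limits cover counting error only. Embryo replicate 1 also stood apart in content: 381 of 31783 genes were more than 5 times higher in it than in both other embryo libraries, against 108 for replicate 2 and 64 for replicate 3. In the endosperm the highest such number was 277, for replicate 1 at 3 DAP. The labels were checked with marker lists. The summed level of 6 embryo genes (wox9A, wox9B, wox9C, wox2A, lec1 and vp1) was 56.8 to 114 CPM in the embryo and 0.623 to 8.02 CPM elsewhere. Of these, wox2A did not set the embryo apart. It had 1.60 to 5.89 CPM there (mean 3.61) and 1.67 to 7.84 CPM in the endosperm at 1 DAP (mean 4.94). The endosperm gene fie1 had 0.711 to 5.16 CPM in the embryo, against 73.2 to 95.9 CPM in the endosperm at 4 DAP. The embryo libraries did carry genes named for the endosperm next to the embryo: esr1 (GRMZM2G046086) had 255 to 399 CPM in the embryo, against 23.6 to 124 CPM in the endosperm at 4 DAP. The summed level of all 16 endosperm genes looked at was 410 to 710 CPM in the embryo and 519 to 1280 CPM in the endosperm at 4 DAP. It was lower than in the embryo at 0 DAP (28.9 to 44.7), 1 DAP (28.3 to 37.3), 2 DAP (117 to 126) and 3 DAP (94.5 to 114 CPM). Of these genes MRP1 (GRMZM2G113203) ran the other way over the stages. It averaged 35.7 CPM at 0 DAP, 0.0708 CPM in the endosperm at 4 DAP and 0.830 CPM in the embryo. Of the 16, 12 had any read in the embryo, but only 4 averaged at least 1 CPM there. Beside fie1 and esr1 these were esr2 (GRMZM2G315601, 184 CPM) and ESR3 (GRMZM2G140302, 67.6 CPM). The genes esr1, esr2 and ESR3 thus made up most of the embryo sum. The genes BET1, betl-9, bap1-b and bap-3b, named for the basal endosperm, were at 0 in all 3 embryo libraries. The part of such tissue in the PIN levels of the embryo was not tested. The summed level of 5 central cell and embryo sac genes (es1, es2, es4, EBE-1 and EBE-2) was 465 to 1170 CPM at 0 DAP, 118 to 190 at 1 DAP, 636 to 1320 at 2 DAP, 472 to 830 at 3 DAP and 115 to 275 at 4 DAP, and 2.04 to 13.9 CPM in the embryo. The sum thus did not set 0 DAP apart from 2 DAP, where EBE-2 (GRMZM2G167733) averaged 800 CPM, against 379 CPM at 0 DAP, while es1, es2 and es4 were highest at 0 DAP.

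PIN1a, PIN1b and PIN1c had their highest level in the embryo and were close to 0 in the central cell and in the endosperm at every stage. PIN10a was highest in the central cell, still present at 1 and 2 DAP, and at 1.63 CPM or less in the endosperm from 3 DAP. Levels are compared within each gene only, because no transcript lengths of the build used were at hand to set one gene against another. In tissue samples of this kind, fewer cells that express a gene and less RNA per cell cannot be told apart.

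**Figure D1:**
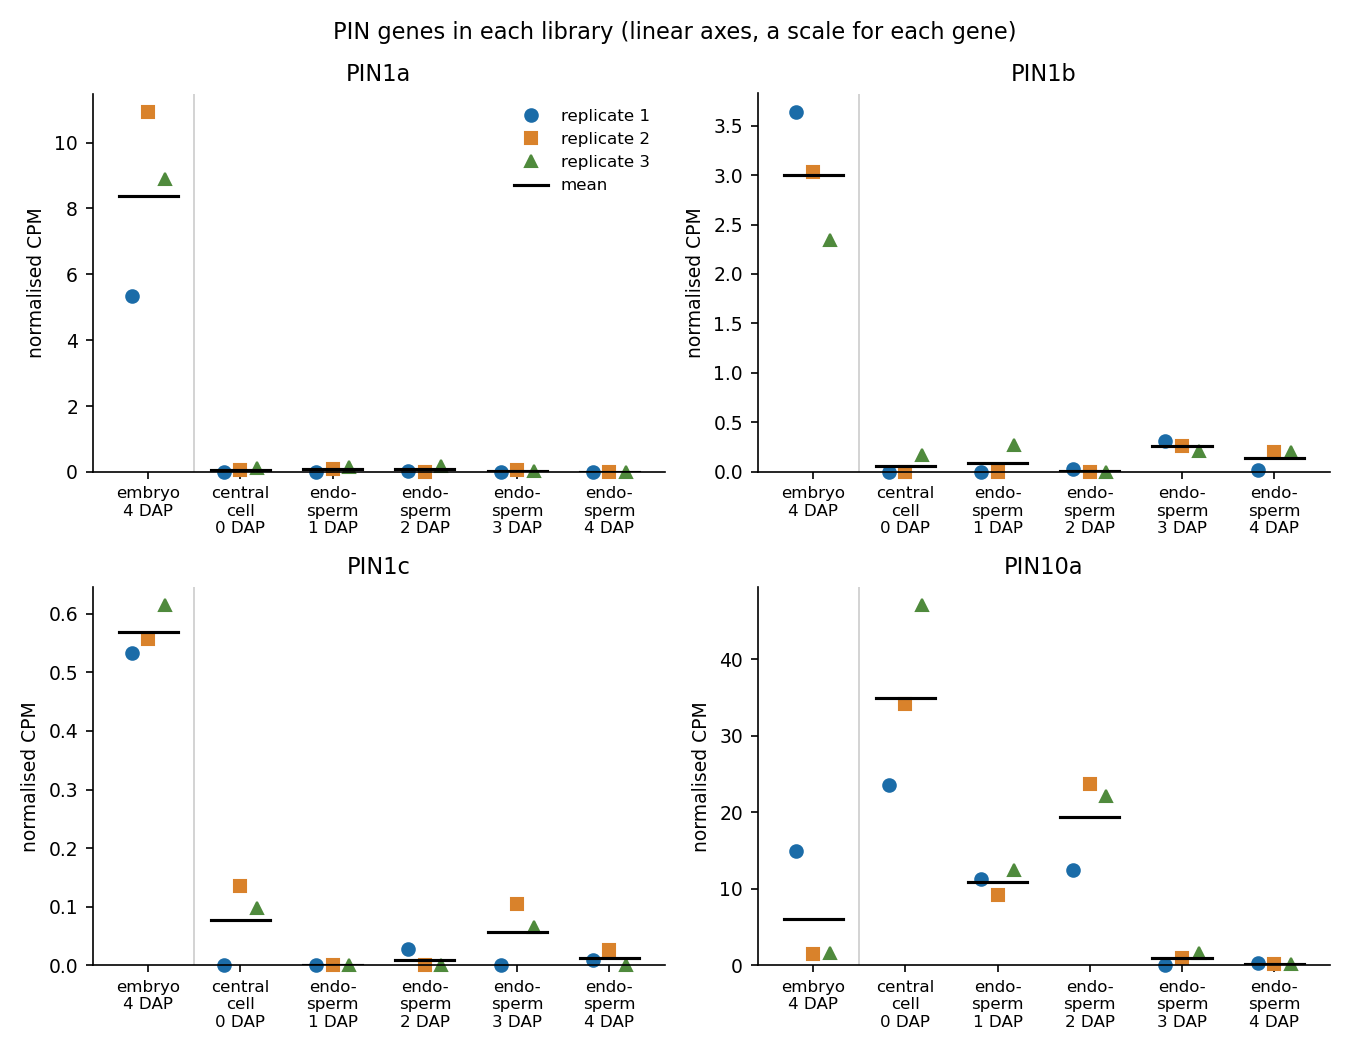
Normalised CPM (linear axes, a separate scale for each gene) of the 4 PIN genes in each of the 18 libraries, with the embryo at the left and the central cell and endosperm stages to its right; symbols mark the replicates and bars the mean of 3 libraries. PIN1a, PIN1b and PIN1c are high only in the embryo column (5.33 to 10.9, 2.34 to 3.64 and 0.533 to 0.615 CPM), while PIN10a is high at 0, 1 and 2 DAP and in embryo replicate 1 (14.9 CPM).

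PIN1a had 5.33, 10.9 and 8.91 CPM in embryo replicates 1, 2 and 3, which rest on 60, 884 and 449 reads. In the endosperm at 4 DAP it had 0 reads in all 3 libraries. The embryo mean was 8.39 ± 2.84 CPM (SD, n = 3). All 3 embryo libraries thus stood above every endosperm and central cell library, where PIN1a ranged from 0 to 0.182 CPM with a median of 0.0327 CPM. In those 15 libraries together 49 reads were counted for the gene, and 7 of the 15 had none. The reads of each group were also pooled, with the endosperm at 4 DAP set at the floor of 3 reads over the group. PIN1a was then 875-fold higher in the embryo. The counting error and the spread of the embryo libraries are left out of this ratio.

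PIN1a also had few reads at each earlier stage. At 0 DAP it had 0, 0.0619 and 0.122 CPM, at 1 DAP 0, 0.0865 and 0.145 CPM, and at 2 DAP 0.0382, 0 and 0.182 CPM. At 3 DAP it had 0, 0.0526 and 0.0327 CPM, from 5 reads in all. The libraries of each of these stages overlap those of the next, and in the order of group means (1, 2, 0, 3 and 4 DAP) no 2 neighbours separate. Replicate 1 at 1 DAP had 0 reads, a value that at its depth allows up to 0.335 CPM. The pooled reads were 0 at 4 DAP, against 10 at 0 DAP. With 4 DAP set at the floor of 3 reads, the level was 4.61-fold lower at 4 DAP. That ratio leaves out the counting error of the 10 reads, and the libraries overlap, since replicate 1 at 0 DAP also had 0 reads.

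PIN1b had 3.64, 3.03 and 2.34 CPM in the embryo, from 41, 245 and 118 reads. In the endosperm at 4 DAP it had 0.0176, 0.203 and 0.199 CPM. The groups do not overlap, and the means were 3.01 ± 0.651 and 0.140 ± 0.106 CPM (SD, n = 3 each), 21.5-fold higher in the embryo. In the central cell and endosperm PIN1b had 106 reads over 15 libraries, and 48 of these came from 3 DAP.

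Within the endosperm, PIN1b differed by stage in its detection. At 3 DAP all 3 libraries had the gene, with 0.314, 0.263 and 0.207 CPM, against 0.0287 CPM in 1 library and 0 in the other two at 2 DAP. At 4 DAP the 3 libraries were all below those of 3 DAP, the highest at 0.203 CPM. At 0 and 1 DAP only replicate 3 had reads, giving 0.171 CPM at 0 DAP and 0.272 CPM at 1 DAP. The pooled ratio of 3 DAP to 2 DAP was 22.1, with an exact 95% counting interval of 7.12 to 111, since 2 DAP had only 3 reads. Neither of these steps passed the test given next.

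PIN1c had 0.533, 0.557 and 0.615 CPM in the embryo, from 6, 45 and 31 reads. In the endosperm at 4 DAP it had 0.00878, 0.0271 and 0 CPM, from 3 reads in all. The groups do not overlap, and the pooled ratio of embryo to endosperm was 51.5, with an exact 95% counting interval of 17.0 to 255. The ratio of means was 47.6, and 129 without replicate 2 of the endosperm. Over all 15 central cell and endosperm libraries PIN1c ranged from 0 to 0.136 CPM, with its highest values in replicates 2 and 3 at 0 DAP (0.136 and 0.0975 CPM) and 0 reads in all 3 libraries at 1 DAP. At 2 DAP it had 0.0287 CPM in replicate 1 and 0 in the others, and at 3 DAP 0, 0.105 and 0.0653 CPM. In the order of its means (embryo, 0, 3, 4, 2 and 1 DAP) the embryo stands clear and all other neighbours overlap.

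Differences between groups were tested on log2(CPM + 1) with limma over all 18 libraries, for genes that reached 1 CPM in 3 or more libraries, and a gene was called at a Benjamini-Hochberg adjusted p below 0.05 over the 31783 genes that passed. PIN1a, PIN1b and PIN10a passed this filter and PIN1c did not. PIN1a and PIN1b passed it through the embryo alone, so their embryo comparison had to differ and their count supports nothing further. In the embryo against the endosperm at 4 DAP, 3 of 3 tested PIN genes were called higher. Of all genes tested, 12.4% were called higher there and 23.5% in either direction (34.5% with the replicate block). Every embryo library was higher for all 4 PIN genes, as for 19.2% of genes tested, which do not include PIN1c. PIN1a rose by 3.18 ± 0.186 on this log2 scale (± SE, n = 3 each; limma adjusted p = 9.31e-10) and PIN1b by 1.80 ± 0.156 (limma adjusted p = 1.31e-07). The pseudocount of 1 makes both differences smaller than the ratios of CPM. Embryo libraries lay above all 15 others for PIN1a and PIN1b, as they did for 5.44% of genes tested. PIN1c was tested without the filter: its embryo value was higher by 0.63 in limma (adjusted p = 6.28e-05) and by 5.42 in edgeR (adjusted p = 0.0140), and no other alternative gives it a value.

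PIN1a and PIN1b were called at none of the 4 steps between neighbouring stages by limma, edgeR or DESeq2. Of all genes tested, edgeR called 18.8% at 1 DAP, 19.9% at 2 DAP, 2.72% at 3 DAP and 2.04% at 4 DAP, each against the stage before, and DESeq2 called 23.8%, 25.2%, 6.57% and 4.95% at these steps. For PIN1a the limma changes were 0.02 at 1 DAP, -0.01 at 2 DAP, -0.06 at 3 DAP and -0.04 at 4 DAP, each with an SE of 0.186 and against the stage before. For PIN1b they were 0.04, -0.10, 0.32 and -0.15, each with an SE of 0.156. The PIN1b difference at 3 DAP had an unadjusted p of 0.0552 and a limma adjusted p of 0.395. Its 95% interval ran from -0.01 to 0.65. All 3 PIN1b libraries at 3 DAP lay above those of 2 DAP, as did 11.1% of genes tested, and all 3 at 4 DAP lay below those of 3 DAP, as did 11.2%. In the test over the 5 stages together PIN1a had an F of 0.114 (limma adjusted p = 0.983) and PIN1b an F of 1.24 (limma adjusted p = 0.409), where 53.1% of genes tested were called. On the pseudocount scale such low values can hardly move, so a missed call here does not show that the levels were equal. The reads of PIN1a, 0 at 4 DAP against 10 at 0 DAP, were called lower by edgeR (log2 change -4.91, adjusted p = 0.0468) and DESeq2 (-4.80, adjusted p = 0.00720) but not by limma (-0.08, adjusted p = 0.761), with 0.00720 and 0.917 as the extremes of the adjusted p under the alternatives. Of all genes tested, 36.2% were called by edgeR and 40.3% by DESeq2 in that comparison. In the embryo comparison edgeR called 22.4% and DESeq2 26.9%, and PIN1a, PIN1b and PIN10a were called higher by both. Both tools used the same filter, which PIN1a and PIN1b passed through the embryo alone, so these calls of PIN1a and PIN1b had to appear.

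**Figure D2:**
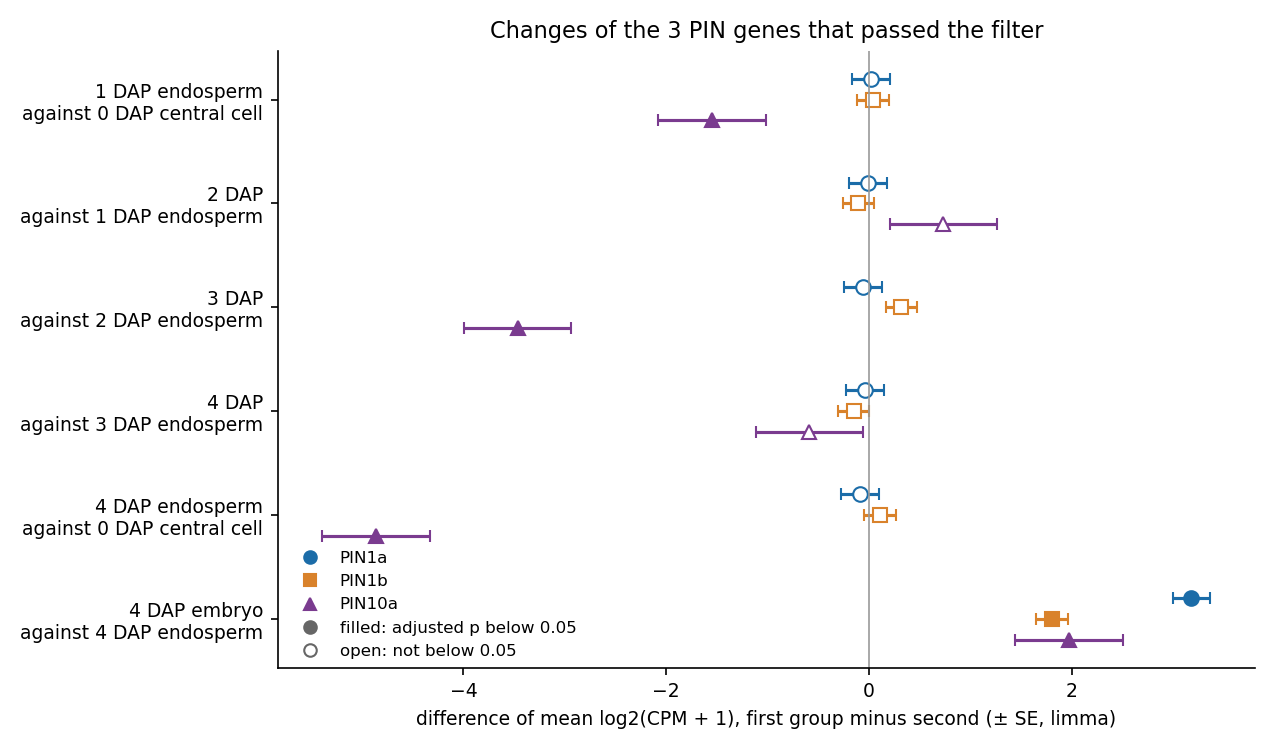
Difference of mean log2(CPM + 1), first group minus second, with its SE from limma (3 libraries a group), for PIN1a, PIN1b and PIN10a in 6 comparisons; filled symbols are called at an adjusted p below 0.05. PIN1a and PIN1b lie near 0 in the 5 comparisons among central cell and endosperm and at 3.18 and 1.80 in the embryo, while PIN10a lies at -3.47 for 3 DAP against 2 DAP and at -4.86 for 4 DAP against 0 DAP.

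PIN10a had the most reads of the 4 genes, 12974 over the 15 central cell and endosperm libraries, and no library was at 0. At 0 DAP it had 23.6, 34.1 and 47.1 CPM, at 1 DAP 11.3, 9.14 and 12.4 CPM, and at 2 DAP 12.5, 23.7 and 22.1 CPM. At 3 DAP it had 0.0826, 1.00 and 1.63 CPM, and at 4 DAP 0.263, 0.162 and 0.149 CPM. Every library of 0, 1 and 2 DAP therefore stood above every library of 3 and 4 DAP, with a gap between 9.14 and 1.63 CPM. The share of all genes tested with such a split was not counted. Over the 5 stages its F was 33.0 (limma adjusted p = 1.75e-06).

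On the first day PIN10a fell to 10.9 ± 1.67 CPM at 1 DAP, against 34.9 ± 11.8 CPM at 0 DAP (SD, n = 3 each), 3.19-fold lower. The 3 libraries of 1 DAP all lay below those of 0 DAP, as for 18.5% of genes tested. The log2 change was -1.55 ± 0.530 (SE; limma adjusted p = 0.0437). In this comparison 12.6% of genes tested were called lower, 10.3% higher and 22.9% in either direction (34.1% with the replicate block). The PIN10a call did not hold with the count tests (edgeR adjusted p = 0.174, DESeq2 adjusted p = 0.105). Nor did it hold without replicate 2 or 3 at 0 DAP (limma adjusted p = 0.10 and 0.141) or without replicate 1, 2 or 3 at 1 DAP (limma adjusted p = 0.0784, 0.120 and 0.0754). The change stayed between -1.82 and -1.29 under every alternative run, with adjusted p-values between 0.000314 and 0.174.

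From 1 to 2 DAP no tested PIN gene was called, where 9.95% of genes tested were called higher, 10.6% lower and 20.6% in either direction (32.7% with the replicate number as a block). PIN10a had 19.4 ± 6.05 CPM at 2 DAP, against 10.9 ± 1.67 CPM at 1 DAP (SD, n = 3 each). The lowest library of 2 DAP (12.5 CPM) was just above the highest of 1 DAP (12.4 CPM), as every library was higher at 2 DAP for 18.2% of genes tested. The log2 change of 0.73 ± 0.530 was not called (SE; limma adjusted p = 0.365), although it was called without all replicate 1 libraries (1.03, adjusted p = 0.0120), in a range of 0.0120 to 0.584 over its alternatives. The levels at 2 DAP also reach those at 0 DAP, since the highest library of 2 DAP (23.7 CPM) exceeds the lowest of 0 DAP (23.6 CPM).

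The main change of PIN10a came between 2 and 3 DAP, when it fell to 0.905 ± 0.780 CPM, against 19.4 ± 6.05 CPM at 2 DAP (SD, n = 3 each), 21.4-fold lower. The highest library of 3 DAP (1.63 CPM) lay far below the lowest of 2 DAP (12.5 CPM), and 10.5% of genes tested were lower in every library. The log2 change was -3.47 ± 0.530 (SE; limma adjusted p = 0.00123). Of the 3 tested PIN genes 1 was called lower, where 0.746% of genes tested were called lower, 1.89% higher and 2.63% in either direction (7.63% with the replicate block). The call held in edgeR, in DESeq2 and without each of the 6 libraries in turn, and the adjusted p-values of all alternatives lay between 2.41e-06 and 0.0244. Replicate 1 at 3 DAP, the library that stood apart in its stage, had the lowest PIN10a value (5 reads), and without it the change was -3.10 (limma adjusted p = 0.00920). Without replicate 3 at 3 DAP, the highest of its stage, PIN10a was 35.9-fold lower (log2 change -3.75, limma adjusted p = 0.00386).

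From 3 to 4 DAP no tested PIN gene was called, where 1.67% of genes tested were called higher, 0.818% lower and 2.49% in either direction (8.62% with the replicate block, and then 42.0% of the calls were higher, against 67.2% without it). PIN10a had 0.192 ± 0.0625 CPM at 4 DAP, against 0.905 ± 0.780 CPM at 3 DAP (SD, n = 3 each; log2 change -0.59 ± 0.530 SE, limma adjusted p = 0.754). The groups overlap, because replicate 1 at 3 DAP lay below every library of 4 DAP. Over the whole period PIN10a fell to 0.192 CPM at 4 DAP, against 34.9 CPM at 0 DAP, 182-fold lower. That is a log2 change of -4.86 ± 0.530 (SE; limma adjusted p = 1.70e-06) with no overlap of libraries, and 25.5% of genes tested were lower in every library. It was the single PIN gene of 3 tested that was called lower, where 19.7% of genes tested were called lower, 17.5% higher and 37.2% in either direction.

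The summed level of the floral and ovule MADS-box genes zag2, ZAG1 and bde1, looked at as signs of maternal tissue, also went down over the stages: 69.4 to 96.7 CPM at 0 DAP, 45.6 to 61.8 at 1 DAP, 21.5 to 28.6 at 2 DAP, 2.38 to 10.9 at 3 DAP and 0.597 to 4.49 at 4 DAP. All 3 genes were detected at every stage, zag2 (GRMZM2G160687) made up most of the sum, and none of the 3 was at 0 throughout a stage. In the embryo the sum was 2.31, 15.1 and 4.54 CPM in replicates 1, 2 and 3. The part of this tissue in the PIN10a levels was not tested.

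PIN10a was uneven among the embryos. It had 14.9, 1.51 and 1.57 CPM in replicates 1, 2 and 3, from 168, 122 and 79 reads, so the shallow replicate 1 was 9.52-fold above the higher of the other two. In the endosperm at 4 DAP it had 0.263, 0.162 and 0.149 CPM, below each of the 3 embryo libraries. The embryo mean of 6.0 ± 7.73 CPM (SD, n = 3) was 31.3-fold that of the endosperm, and 8.03-fold without replicate 1. The log2 change was 1.98 ± 0.530 (SE; limma adjusted p = 0.0110), or 1.09 without embryo replicate 1 (limma adjusted p = 0.0388). It was not called with a pseudocount of 5 (adjusted p = 0.0739) or in a fit to the compared groups alone (adjusted p = 0.0763), and the alternatives gave adjusted p-values between 1.36e-08 and 0.0763. In the order of PIN10a means (0 DAP, 2 DAP, 1 DAP, embryo, 3 DAP, 4 DAP) each neighbouring pair overlaps except 2 and 1 DAP.

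**Figure D3:**
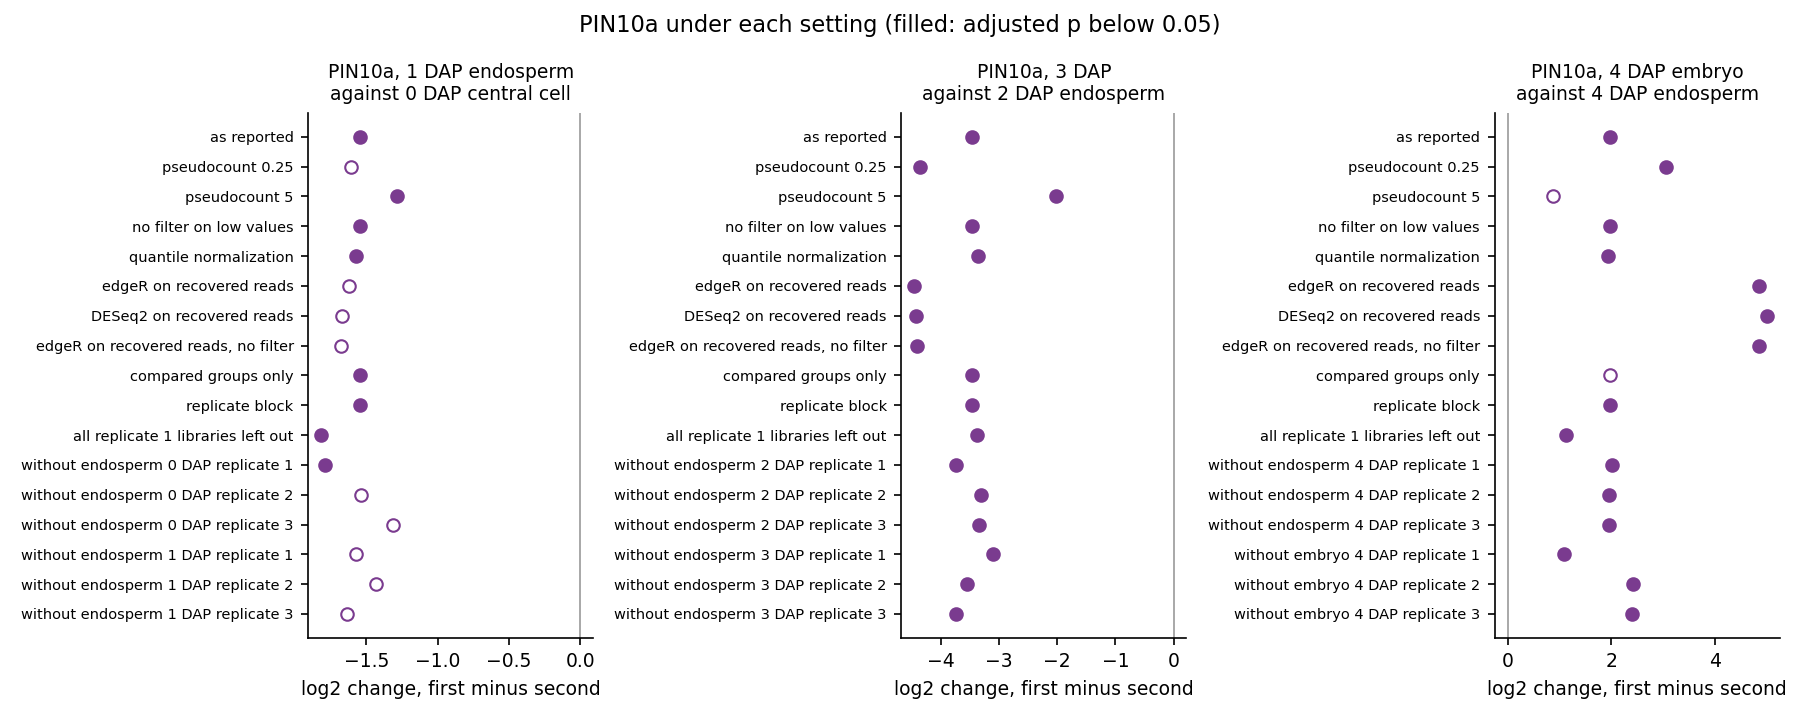
Log2 change of PIN10a, first group minus second, under each setting (rows) in 3 comparisons; filled points have an adjusted p below 0.05. For 3 DAP against 2 DAP every point is filled (-4.46 to -2.02), for 1 DAP against 0 DAP many are open (-1.82 to -1.29), and for the embryo the points run from 0.87 to 5.01 and the value without embryo replicate 1 is 1.09.

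Among other genes that the reference table names PIN, PIN8 (GRMZM5G839411), whose Arabidopsis namesake acts inside cells at the endoplasmic reticulum and in pollen, was present for a short time. It had 1.12, 10.1 and 7.04 CPM at 1 DAP, against 0.859, 0.0247 and 0 CPM at 0 DAP. It had 6.61, 6.0 and 7.85 CPM at 2 DAP, and then 0.132, 0.579 and 0.457 CPM at 3 DAP. The libraries of 1 and 2 DAP all lay above those of 0, 3 and 4 DAP, a split whose share among all genes was not counted. PIN8 rose by 2.21 ± 0.416 at 1 DAP (SE; limma adjusted p = 0.000995), with 0.44 at 2 DAP not called (limma adjusted p = 0.508), and fell by 2.50 at 3 DAP (limma adjusted p = 0.00251). The fall of PIN8 at 3 DAP, which coincides with that of PIN10a, was not called by edgeR (adjusted p = 0.0798) or DESeq2 (adjusted p = 0.0768). PIN8 passed the filter through 1 and 2 DAP alone, which favoured its calls at 1 and 3 DAP, so they support nothing further. In the embryo PIN8 had 0.178, 0 and 0.0793 CPM, against 0, 0.0271 and 0.124 CPM in the endosperm at 4 DAP.

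PIN1d (GRMZM2G171702) did not pass the filter. It had 3.73, 0.322 and 0.655 CPM in the embryo, where replicate 1 was again the highest, against 0.0351, 0.0812 and 0 CPM in the endosperm at 4 DAP. At 0 DAP it had 1.26, 0.680 and 0.634 CPM, and at 2 DAP it had 0 reads in all 3 libraries. PINY (GRMZM2G050089) was present throughout at 7.47 to 27.7 CPM. It fell to 10.8 ± 2.98 CPM at 2 DAP, against 22.2 ± 6.97 CPM at 1 DAP (SD, n = 3 each; log2 change -0.97, limma adjusted p = 0.0301), and in the embryo its change of 0.06 was not called (limma adjusted p = 0.923).

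**Figure D4:**
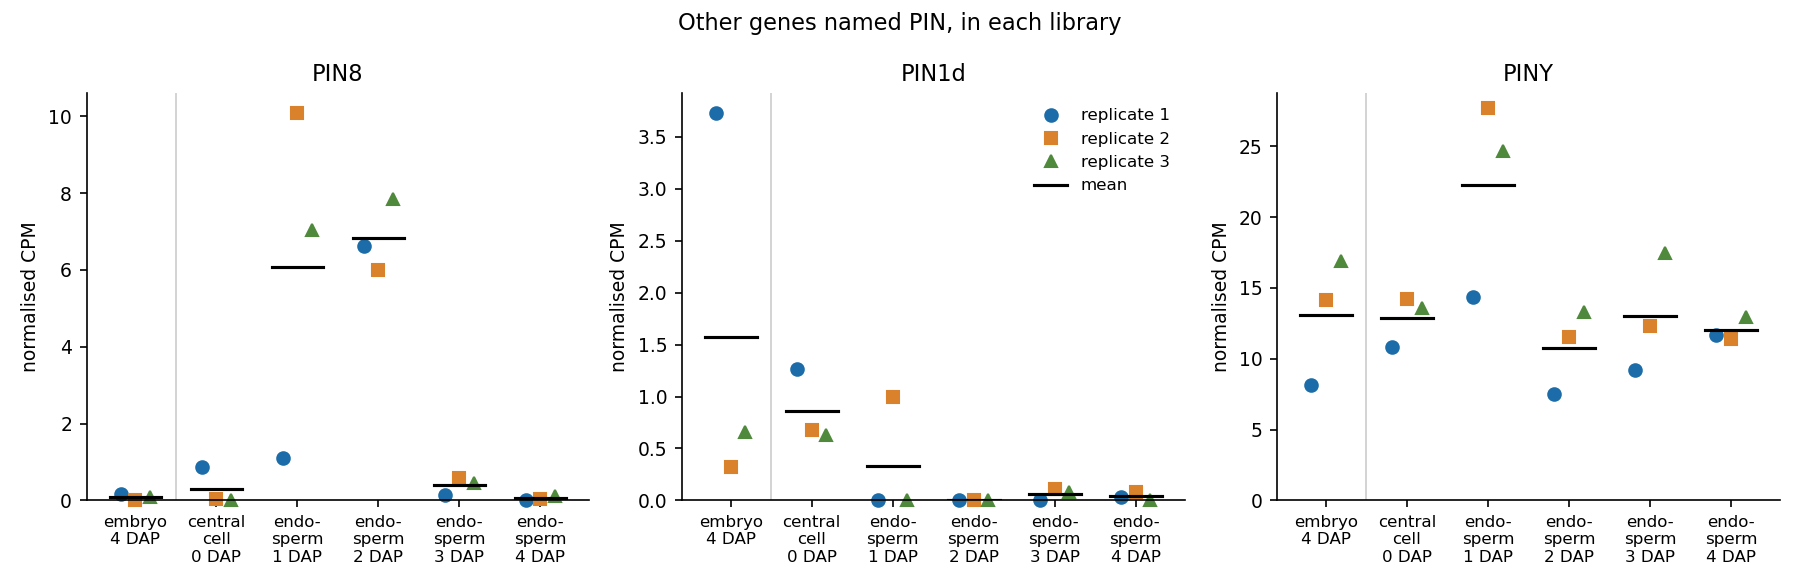
Normalised CPM (linear axes, a separate scale for each gene) of PIN8, PIN1d and PINY in each of the 18 libraries, with the embryo at the left; symbols mark the replicates and bars the mean of 3 libraries. PIN8 is high at 1 and 2 DAP (1.12 to 10.1 CPM), PIN1d is highest in embryo replicate 1 (3.73 CPM), and PINY is present in all libraries.

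Another auxin exporter, br2 (GRMZM2G315375, brachytic2), of the ABCB type, had 9.77, 3.11 and 2.82 CPM in the embryo, against 0.0615, 0.149 and 0.0248 CPM in the endosperm at 4 DAP. It rose by 2.36 ± 0.365 there (SE; limma adjusted p = 0.000117). It passed the filter only with its embryo values, so this call supports nothing further. In the endosperm br2 was highest at 1 DAP, with 0.223, 1.96 and 2.52 CPM, against 0.0970, 0.198 and 0.0975 CPM at 0 DAP (log2 change 1.05, limma adjusted p = 0.0471). The value of the shallow replicate 1 at 1 DAP is 2 reads, below the 0.335 CPM of 3 reads there, so the rise rests on replicates 2 and 3.

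Of 43 other genes with auxin names in the reference table, PIN8, PINY, PIN1d and br2 among them, 37 passed the filter. In the embryo against the endosperm at 4 DAP, 16 of the 37 were called higher and 9 lower, which is 67.6% of them, where 23.5% of all genes tested were called (12.4% higher and 11.1% lower). They had a median log2 change of 0.53, against -0.01 for all genes tested. Among them 9 of 17 auxin response factors (ARF), the transcription factors through which auxin acts, rose and 3 fell, and of 11 genes named AUX 5 rose and 1 fell. That is 70.6% and 54.5% called. ARF23 (GRMZM2G441325) rose by 4.41 and ARF4 (GRMZM2G034840) by 3.61 (limma adjusted p = 3.66e-09 and 3.65e-09). The 3 tested genes named for YUCCA enzymes, which make auxin, fell: Yucca3 (GRMZM2G107761) by 7.96 and yuc (GRMZM2G091819) by 3.27 (limma adjusted p = 7.24e-07 and 4.92e-08), and Yucca6 by 2.38 (limma adjusted p = 0.00293). Some of these calls rest on the filter. The gene yuc passed it through the endosperm at 4 DAP alone, and AUX9 (GRMZM2G048131), GH3 (GRMZM2G378106) and br2 passed only with their embryo values. Their calls support nothing further, and the counts and shares above include them. The auxin gene spi1 (GRMZM2G025222) did not pass the filter and went the other way from the 3 YUCCA genes. It had 0.992 to 1.98 CPM in the embryo and 0 reads in the endosperm at 4 DAP.

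From 2 to 3 DAP, when PIN10a fell, 0 of the 37 genes rose and 1, PIN8, fell. That is 2.70% of them, near the 2.63% called among all genes tested, with a median log2 change of 0.01, against -0.01 for all genes tested. As PIN8 passed the filter through 1 and 2 DAP alone, its calls support nothing further, here and at 1 DAP, and the counts include them. From 1 to 2 DAP 4 rose, led by Yucca6 (GRMZM2G019515) and Yucca3, and 12 fell, led by ARF11 (GRMZM2G056120) and AUX6 (GRMZM2G035465), by 2.61 and 2.33. At 1 DAP against 0 DAP 9 rose, led by Yucca3 (6.55) and AUX1 (GRMZM2G000158, 3.33), and ARF4 fell by 0.77. At 4 DAP against 3 DAP 4 rose, led by yuc (3.35) and ARF11 (2.48), and ARF1 (GRMZM2G169820) fell by 1.26. At 4 DAP against 0 DAP 13 rose, led by Yucca3 (7.87) and yuc (3.35), and 4 fell, led by AUX14 (GRMZM2G077356) and ARF4, by 2.06 and 1.47. The rises of yuc had to appear, because yuc passed the filter through the endosperm at 4 DAP alone. The median log2 changes of the 37 genes in these 4 comparisons were -0.57, 0.20, 0.35 and 0.21, against 0.00, -0.04, -0.01 and 0.01 for all genes tested. The shares called were 43.2%, where 20.6% of all genes tested were called, at 2 DAP against 1 DAP, and 13.5%, where 2.49% were, at 4 DAP against 3 DAP. At 1 DAP against 0 DAP 27.0% were called, where 22.9% of all genes were, and at 4 DAP against 0 DAP 45.9%, where 37.2% were, both nearer the share of all genes.

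The named genes closest in pattern to each PIN gene were sought by Pearson r of log2(CPM + 1) over the 18 libraries. For PIN1a they were gst23 (GRMZM2G416632, r = 0.996), hscf1 (GRMZM2G139082, r = 0.995) and OFP24 (GRMZM2G100133, r = 0.995). For PIN1b they were wox9B, also named HB85 (GRMZM2G031882, r = 0.974), wox9A (GRMZM2G133972, r = 0.969) and hscf1 (r = 0.968). For PIN1c they were CER1 (GRMZM2G099097, r = 0.979), hscf1 (r = 0.975) and AD1 (GRMZM2G167438, r = 0.972). All of these are high in the embryo and low elsewhere, and over the 15 other libraries their r ranged from -0.04 to 0.70, so the likeness rests on the 3 embryo libraries. For PIN10a the closest were Ots1c (GRMZM5G886883, r = 0.909), the MADS-box gene zmm29, also named m29 (GRMZM2G152862, r = 0.864), and the annexin gene Ann8 (GRMZM2G132442, r = 0.853). Their r over the 15 libraries without the embryo was 0.923, 0.918 and 0.934. The r values describe these libraries, which share their stage, and carry no test.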

How the data were processed

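The submitters' processing notes list the build B73 RefGen_v3 and, without roles, edgeR, bedtools 2.17.0, TopHat2 2.0.9 and Trimmomatic. How strand and shared reads were treated is not given in the sources used here, so reads of overlapping genes or close copies could be misassigned. The authors deposited 1 signal value per gene and library, in normalised CPM, for 38300 genes. Within 0.001 reads 100% of the values were whole multiples of 1 step per library, which gave the reads.

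Values were tested as log2(CPM + 1) with limma 3.58.1 (trended variance, 1 mean per group, 18 libraries) in R 4.3.3 on the 31783 genes that reached 1 CPM in 3 or more libraries, after a check on simulated data. The two-sided p-values were corrected over these genes after Benjamini and Hochberg. Samples were grouped by their titles. Alternatives were edgeR 4.0.16 and DESeq2 1.42.0 on the recovered reads (5984 and 7566 genes called at 1 DAP against 0 DAP, limma 7276), other pseudocounts, no filter, quantile normalization, compared groups only, a replicate block and left-out libraries. The labels number replicates 1 to 3 in every group. Deviations of same-numbered libraries correlated at 0.150 or more in every comparison. Libraries of different numbers were not set beside them. Each library came from 1 ear, and whether same-numbered libraries share an ear was not tested. The reported fit holds no replicate term, so its SEs and p-values leave any such pairing out. The replicate block is the alternative that takes the numbers as pairs. Blocked shares stand beside some results, and the blocked counts of all comparisons are given below.

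Names came from a RefSeq table of a later B73 assembly, Zm-B73-REFERENCE-NAM-5.0, joined by identifier (14439 genes matched). It lists PIN1a and PIN10a under their identifiers. PIN1b and PIN1c are names given with the gene choice. No coordinates or sequences were used. The PIN family, the lists and the tests were chosen with earlier results of these data known. Named by rule were the 4 PIN genes, the 3 named genes most like each, other genes named PIN, and, of the auxin genes called, the 2 with the largest change in each direction. The genes br2 and spi1 and, in the embryo, Yucca6, and the ARF and YUCCA counts, were added after their values were seen. Of genes with auxin prefixes, arf1 (GRMZM2G395844) was dropped because that name is also used for a factor outside auxin biology.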

Additional observations from a re-analysis of the deposited data

How the results depend on the processing

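Leaving aside the values named here, the calls of the PIN genes stayed on the same side of the threshold under every alternative run. The call of PIN10a at 1 DAP against 0 DAP was lost with a pseudocount of 0.25 (log2 change -1.61), edgeR (-1.62) and DESeq2 (-1.67). It was also lost with edgeR without the filter (-1.67), which was chosen after seeing the data. Leaving out replicate 2 or 3 at 0 DAP, or any 1 library of 1 DAP, lost it too. With 1 library left out the change ran from -1.79 to -1.31. The PIN10a call in the embryo against the endosperm at 4 DAP was lost with a pseudocount of 5 (0.87) and with the compared groups only (1.98). PIN10a at 2 DAP against 1 DAP was called only without all replicate 1 libraries (1.03). PIN1a at 4 DAP against 0 DAP was called with edgeR (-4.91), DESeq2 (-4.80) and edgeR without the filter (-4.92). PIN1c in the embryo, not tested under the filter, was called without it by limma (0.63) and edgeR (5.42), and the other alternatives keep the filter and give it no value. The cause of these differences was not tested. The test over the 5 stages was not run with edgeR or DESeq2. The replicate block changed no call of a PIN gene, with log2 changes of PIN10a equal to those reported. It raised the number of genes called in every comparison. At 2 DAP against 1 DAP it called 10389, at 3 DAP against 2 DAP 2424 and at 4 DAP against 3 DAP 2739. Limma without it called 6539, 837 and 792. At 1 DAP against 0 DAP the block called 10839 (without it 7276), at 4 DAP against 0 DAP 15357 (11823) and in the embryo against the endosperm at 4 DAP 10974 (7475). In the test over the 5 stages together it called 67.7%, against 53.1%.

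Other counts over all genes moved as well. At 1 DAP against 0 DAP, 4305 genes were called with the compared groups only, against 7276, and 56.4% of calls were higher by edgeR, against 45.1%. At 3 DAP against 2 DAP, 366 were called with the compared groups only, 2088 by DESeq2 and 360 to 699 with 1 library left out (360 and 473 without replicates 3 and 1 of 3 DAP, 389 and 404 without replicates 1 and 2 of 2 DAP), and the share of higher calls was 60.8% in the edgeR fit, 61.4% in that of DESeq2 and 61.5% with the block, against 71.7%. At 4 DAP against 3 DAP, 393 were called with the compared groups only, 1572 by DESeq2, 1226 without all replicate 1 libraries and 323 to 671 with 1 library left out (323 without replicate 2 of 3 DAP, 454 and 344 without replicates 1 and 2 of 4 DAP), and 54.8% of calls were higher by DESeq2, 53.4% without all replicate 1 libraries, 83.5% with the compared groups only and 42.0% with the replicate block, which turns the balance, against 67.2%. Depth limits PIN1a, PIN1b and PIN1c in the endosperm, where 106 reads or fewer per gene were counted over 15 libraries.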
